A study of Mus musculus with 18 samples.

Results

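Immediate early response genes are switched on within minutes of a stimulus, without the need for new protein. Growth factors acting through receptor tyrosine kinases, and calcium entering active neurons, reach their promoters through the transcription factors SRF, the ternary complex factors and CREB. Many of their products are transcription factors (FOS, FOSB, JUN, JUNB, EGR1, NR4A1 and ATF3), and others close the response again: DUSP1 dephosphorylates MAP kinases, and ZFP36 (tristetraprolin) binds AU-rich elements in mRNAs and speeds their decay. IER2 is a nuclear protein of less settled function. The 10 genes described here are *Fos*, *Fosb*, *Jun*, *Junb*, *Egr1*, *Nr4a1*, *Atf3*, *Ier2*, *Dusp1* and *Zfp36*, out of 23138 to 54429 gene names per table, and each was found in all 4 tables. They were selected on the neurosphere values below, because *Zfp36* was far lower in cKO neurospheres, so the neurosphere comparison is given as a description with no test.

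RNA was sequenced from 18 mouse samples, which were tissue taken at P0 and neurospheres cultured from P0 hippocampi. Of the 4 tables, 3 compare Kdm2bEmx1-delta-CxxC animals (cKO) with controls labelled Kdm2bfl/+ or Kdm2bfl/fl: hippocampus (3 control and 3 cKO libraries), cortex (2 and 2) and neurospheres grown from hippocampal neural progenitor cells (2 and 2). The other compares Rnf2Emx1-cKO hippocampi with Rnf2fl/+ or Rnf2fl/fl controls (2 and 2). *Emx1*-Cre acts in progenitors of the dorsal telencephalon and their descendants, so blood vessels, meninges and microglia in the dissected tissue keep the floxed alleles; in the *Kdm2b* animals it removes only the exon coding the CxxC zinc finger, which binds CpG islands, and in the *Rnf2* animals it inactivates RING1B, the ubiquitin ligase of Polycomb repressive complex 1. Neurospheres were kept for 3 generations in serum-free medium with FGF2 and EGF, both of which are known inducers of immediate early genes. Controls with 1 and 2 floxed alleles are not told apart by the labels, and the labels do not say whether libraries came from separate animals, so p-values measure the spread between these libraries.

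Levels are in FPKM, fragments scaled to transcript length and to the mapped total of the library, and each table was normalised by itself. *Kdm2b* averaged 29.4 FPKM in control and 27.2 FPKM in cKO hippocampi, and *Rnf2* averaged 31.5 FPKM in *Rnf2* controls and 28.1 FPKM in *Rnf2* cKO hippocampi, but whole-gene values do not check the loss of an exon. Reads recovered from the FPKM values came to between 18480518 and 21905235 per cortical library and between 14654895 and 16334423 per *Rnf2* library, while the depth of the other 2 tables is unknown. In neurosphere control library 1, entries that name no gene held 29.3% of the FPKM, against 0.876% to 1.95% in the other 3 neurosphere libraries. *Xist* was above 1 FPKM in 0 of 3 control and 1 of 3 cKO hippocampi, 2 of 2 and 1 of 2 neurosphere libraries, 1 of 2 and 2 of 2 cortices, and in all 4 *Rnf2* libraries (its part in the results was not tested). In bulk RNA, fewer cells of a type and less RNA per cell cannot be told apart.

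Of the elements searched, 4 members held a match. Sequences are given first for *Dusp1* and *Zfp36*, whose matches are response elements through which a stimulus is read, and for *Fos*, whose TATA box, a core promoter element, lies before its start (that of *Junb* lies at its start and is not shown), and then for the AU-rich element that ZFP36 binds. RefSeq promoter windows of 300 bases (250 before and 50 after the start, build GRCm38.p6) were found for 8 of the 10 members, all except *Egr1* and *Ier2*. Both strands were searched for the CArG box bound by SRF, the CRE bound by CREB (TGACGTCA), the AP-1 site (TGANTCA), an Egr site (GCGTGGGCG) and the TATA box (TATAAA). A CArG box can contain the letters of the TATA box, although that of *Zfp36* does not. Capitals mark the match, and each sequence is written 5′ to 3′ on the strand of its gene.
*Fos* (chr12:85473740-85473889, plus strand, the 150 bases before the start, TATA box): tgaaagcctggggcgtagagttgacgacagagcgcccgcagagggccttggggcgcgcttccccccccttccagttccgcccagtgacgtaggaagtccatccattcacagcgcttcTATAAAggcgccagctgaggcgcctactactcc
*Dusp1* (chr17:26508523-26508622, minus strand, bases 150 to 51 before the start, CRE): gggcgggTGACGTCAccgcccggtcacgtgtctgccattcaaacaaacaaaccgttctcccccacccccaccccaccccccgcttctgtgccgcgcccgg
*Zfp36* (chr7:28379267-28379296, minus strand, bases 68 to 39 before the start, CArG box): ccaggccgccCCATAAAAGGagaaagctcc

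The CArG box of *Zfp36* lay 58 to 49 bases before the RefSeq start, and 1.63% of 32851 promoter windows hold such a box. In GENCODE M21 the same bases fall in the 5′ UTR of a longer *Zfp36* transcript. A CRE was found in *Dusp1* (1.79% of windows), and a TATA box in *Fos* and *Junb* (13.6% of windows), while the AP-1 letters (7.81%) and the Egr letters (0.612%) were in none of the 8 windows. A match is a description of the letters and not a binding site. Elements outside these windows or spelled otherwise were not searched, so a member without a match may still hold such an element. The nonamer TTATTTATT, the core of the AU-rich element, was in the longest annotated 3′ UTR of 3 of the 10 members and of 7.43% of 21685 genes. *Fos* and *Zfp36* had 1 copy each and *Dusp1* had 2, and the first copy of each is shown in capitals with its flanks.
*Fos* 3′ UTR (chr12:85477103-85477131, plus strand): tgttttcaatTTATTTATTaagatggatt
*Zfp36* 3′ UTR (chr7:28376951-28376979, minus strand): tatgacgactTTATTTATTgtattaagat
*Dusp1* 3′ UTR (chr17:26506159-26506187, minus strand): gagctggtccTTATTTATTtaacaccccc

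In neurospheres the 10 genes stood between 15.3 and 740.2 FPKM in controls and every one was lower in both cKO libraries than in both controls. *Zfp36* was lower by the largest factor of the 10. It was at 37.5 and 36.3 FPKM in the controls and at 5.85 and 5.53 FPKM in the cKO libraries, which is a 6.48-fold difference of the means, or −2.50 on the log2(FPKM + 1) scale used for all changes here. Its rank by mean FPKM went from 2384 in controls to 8571 in cKO, of 23398 names. On this scale 9 of the 10 were lower by more than 0.4, beside 14.2% of all 12227 genes that were lower by as much with groups apart and 12.2% that were higher. Nothing is read from that share, because these values chose the members.

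The genes of both FOS proteins, which pair with JUN proteins to form AP-1, were lower. *Fos* was at 740.2 and 661 FPKM in controls, rank 89 of all names by the mean, and at 186 and 208 FPKM in cKO (−1.82, 3.56-fold lower by the means). *Fosb* was at 153 and 144 FPKM in controls and at 53.1 and 63.5 FPKM in cKO (−1.34). The JUN partners went the same way. *Junb* was at 291 and 235 FPKM against 66.9 and 86.7 FPKM (−1.77), and *Jun* was at 185 and 267 FPKM against 105 and 91.9 FPKM (−1.17). A second *Jun* entry in the same table, with a lower mean, was at 185 and 75.6 FPKM in controls and at 26.5 and 89.7 FPKM in cKO, so its groups overlapped.

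The zinc finger factor *Egr1*, at 713 and 665 FPKM in controls, was as abundant as *Fos*, and was at 389.8 and 415 FPKM in cKO (−0.77). A second *Egr1* entry was at 49.3 and 14.8 FPKM in controls and at 8.32 and 17.6 FPKM in cKO, so its groups overlapped. *Nr4a1*, an orphan nuclear receptor, was at 353 and 391 FPKM against 167 and 138 FPKM (−1.29). *Atf3*, the least abundant of the 10 in control neurospheres and a bZIP factor induced by stress, was at 15.3 and 17.3 FPKM against 5.33 and 8.08 FPKM (−1.19). For *Ier2* the entry used joins its name with that of its neighbour *Nacc1*, and it was at 329 and 314 FPKM against 175 and 197 FPKM (−0.79). *Nacc1* stood between 25.1 and 34.5 FPKM in the 3 tissue tables, where it has an entry of its own. A further entry named *Ier2* alone held 1.73 to 4.03 FPKM. *Dusp1* had the smallest difference, with 51.9 and 47.4 FPKM in controls and 33.0 and 43.1 FPKM in cKO (−0.39).

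**Figure D1:**
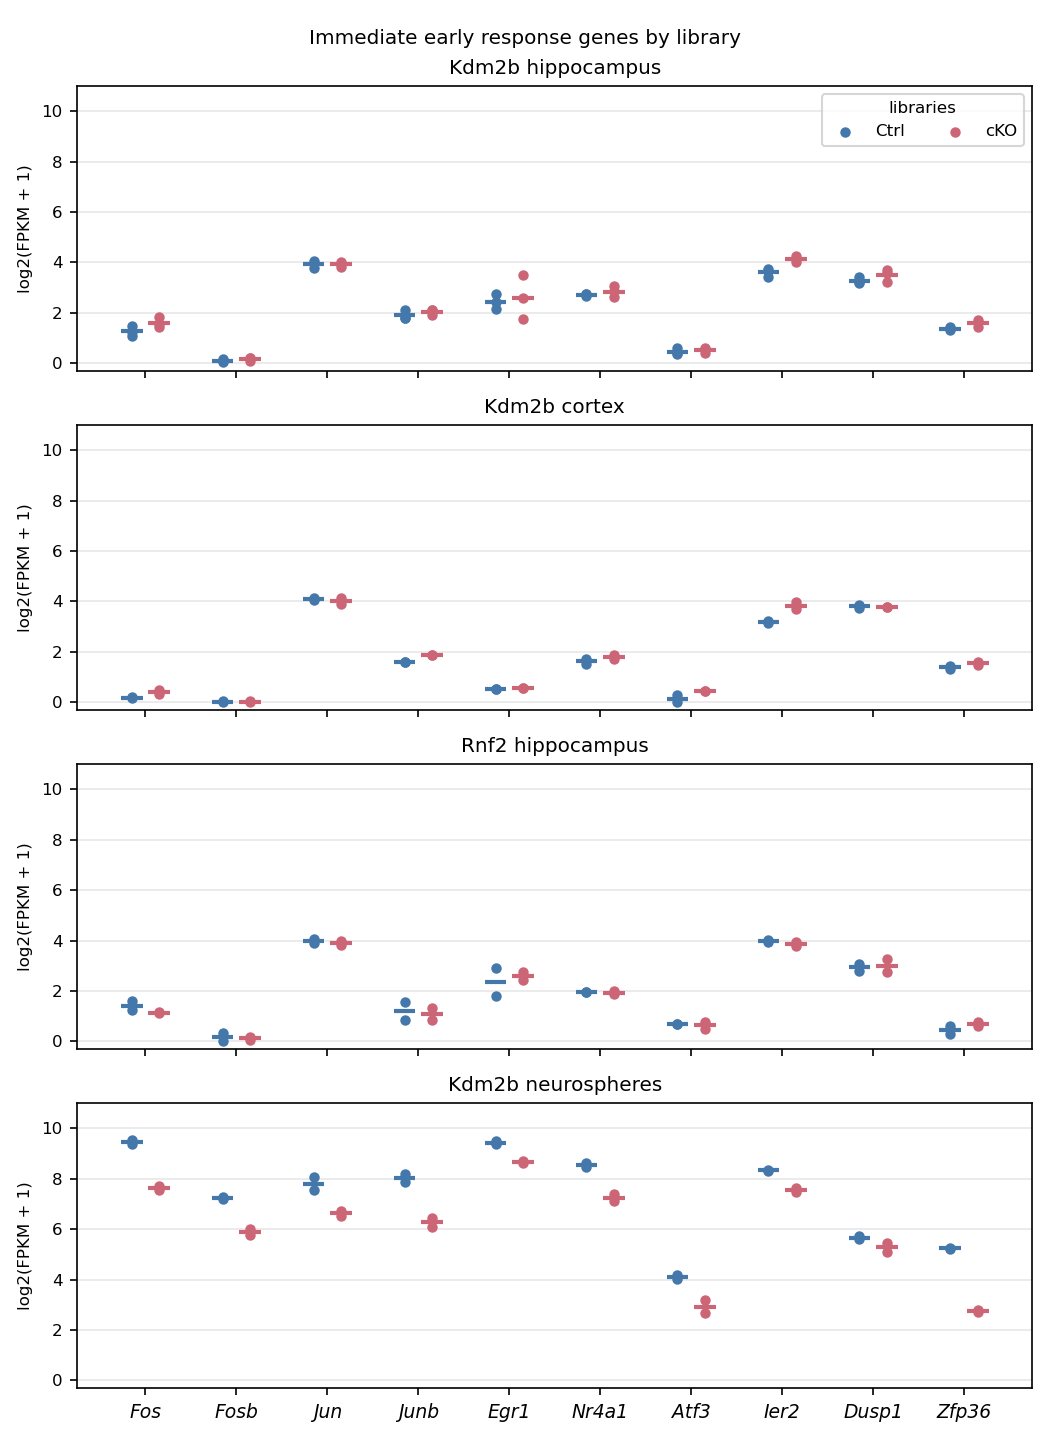
Level of each of the 10 genes in each library as log2(FPKM + 1), with control libraries in blue, cKO libraries in red and a bar at each group mean; the 4 panels are the 4 tables, normalised separately. Neurosphere points lie far above the tissue points, and in the neurosphere panel all red points of a gene lie under its blue points, with *Zfp36* the farthest apart.

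Neurosphere levels were far above tissue levels. The ratio of the neurosphere to the hippocampal control mean had a median of 55.0 over the 10 genes, and it ran from 5.70 for *Dusp1* through 496 for *Fos* to 2309 for *Fosb*, which was at 0.0306 to 0.114 FPKM in control hippocampi. Among cKO libraries the median ratio was 19.8, and *Zfp36* went from 23.3 in controls to 2.80 in cKO. These ratios cross separately normalised tables and cells of different origin, so they are levels set side by side with no test. In control neurospheres the order of the means was *Fos*, *Egr1*, *Nr4a1*, *Ier2*, *Junb*, *Jun*, *Fosb*, *Dusp1*, *Zfp36* and *Atf3*, in which *Fos* and *Egr1* overlapped in range, as did *Junb* and *Jun*. In control hippocampi it was *Jun*, *Ier2*, *Dusp1*, *Nr4a1*, *Egr1*, *Junb*, *Zfp36*, *Fos*, *Atf3* and *Fosb*, in which *Nr4a1* and *Egr1* overlapped, as did *Zfp36* and *Fos*.

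Of 35 other immediate early genes, listed with earlier results of these data known, all 35 passed the filter on low values in neurospheres, and 25 were lower by more than 0.4 with groups apart while 0 were higher. Their median change was −0.62, against −0.01 over all genes. The 3 largest were *Socs3*, a feedback inhibitor of cytokine receptors, with 56.8 to 64.1 FPKM in controls and 7.43 to 10.5 FPKM in cKO (−2.64), *Cyr61*, which encodes a matrix protein (−2.12), and *Arc*, which encodes a synaptic protein (−1.93). Of the 12 AP-1 partners and ATF factors, 11 passed the filter and 3 were lower, *Fosl2* (−1.16, also counted among the 35), *Jund* (−0.48) and *Atf7* (−0.45). Of 22 upstream kinases and SRF, TCF and CREB factors, *Srf* was lower, with 38.2 to 41.3 FPKM in controls and 23.8 to 27.1 FPKM in cKO (−0.63), and *Egfr*, the EGF receptor, was higher, with 51.0 to 51.9 FPKM against 73.6 to 82.6 FPKM (0.59). Among 14 MAPK feedback inhibitors and corepressors the phosphatase genes were split, with *Dusp6* (−0.80) and *Dusp5* (−0.49) lower and 4 genes higher, among them *Dusp2* (0.74), *Dusp16* (0.67) and *Dusp4* (0.61).

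Of 11 genes of the *Zfp36* family and AU-rich mRNA binding, 1 was lower and 1 higher by more than 0.4 with groups apart. The median change of the 11 was 0.097. *Zfp36l1* was lower, with 86.4 to 107 FPKM in controls and 60.0 to 63.7 FPKM in cKO (−0.63). *Dcp2* was higher, with 5.84 to 6.21 FPKM in controls and 8.03 to 9.71 FPKM in cKO (0.49). *Zfp36l2*, read from an entry joined with *Thada*, was at 68.0 to 72.0 FPKM against 59.0 to 60.4 FPKM (−0.22). Of 12 mRNAs known as ZFP36 targets only 3 passed the filter in neurospheres, of which *Ptgs2*, at 0.820 to 1.30 FPKM in controls and 0.269 to 0.392 FPKM in cKO, was lower (−0.62). *Ptgs2* passed the filter only through its control values. All 9 entries of the 10 heat shock genes passed (*Hspa1a* and *Hspa1b* share 1), and *Hsp90aa1* was higher (0.41), while 0 were lower and the median change was 0.18.

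Other cell type markers moved in the same comparison. In cKO neurospheres 7 of 8 astrocyte markers and 6 of 8 oligodendrocyte lineage markers were lower, with *Gja1* at −3.97 and *Gpr17* at −3.99, and 4 of 8 progenitor markers were higher, with *Top2a* at 1.19 and *Vim* at 1.18, while 1 was lower, *Hes5* (−0.94). The summed oligodendrocyte lineage markers were at 2533 to 2585 FPKM in controls and 2460 to 2523 FPKM in cKO. Most of that sum came from the 2 markers not lower, *Olig1* (1706 to 1774 against 1885 to 1956 FPKM) and *Olig2* (489 to 516 against 499.9 to 511 FPKM). The summed astrocyte markers were at 782 to 792 FPKM in controls and 472 to 518 FPKM in cKO, and the summed progenitor markers were at 3772 to 4193 FPKM against 5293 to 7150.0 FPKM. Of 6 tested neuronal markers 3 were lower, *Dcx* (−2.21), *Snap25* (−1.03) and *Tubb3* (−0.42), and 1 was higher, *Rbfox3* (0.79). *Dcx*, at 4.85 to 6.04 FPKM in controls and 0.311 to 0.465 FPKM in cKO, passed the filter only through its control values. The summed neuronal markers were at 232 to 243 FPKM in controls and 171 to 199.8 FPKM in cKO. The part of all these markers in the neurosphere values was not tested. Microglial markers summed to 21.1 to 26.0 FPKM and endothelial markers to 5.46 to 5.89 FPKM over the 4 libraries, and no blood marker passed the filter.

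In Kdm2b cKO hippocampi, a comparison the choice of members did not use, *Ier2* (chr8:84661331-84662852 in mm10, minus strand) was the 1 member called higher and 0 were called lower. It was at 12.5, 9.79 and 11.6 FPKM in the controls and at 16.5, 18.3 and 15.1 FPKM in the cKO libraries, so every cKO library lay above every control. The change was 0.52 ± 0.10 (SE; adjusted p = 0.0144 by limma, Benjamini-Hochberg over 13446 genes), a rise of the mean from 11.3 ± 1.37 to 16.6 ± 1.59 FPKM (SD, n = 3 each). A gene was called where p was below 0.05 before adjustment and the log2 change lay beyond 0.4 either way, which was met upward by 3.89% and downward by 2.25% of all genes. Of the 10 members 8 passed the filter of a mean of at least 0.5 FPKM, and *Atf3* and *Fosb* did not. The median change of the 8 was 0.20, against 0.01 over all genes. Leaving out any 1 library kept *Ier2* called, with changes of 0.43 to 0.59.

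*Zfp36* had higher values in cKO than in control hippocampi but did not pass the test. It was at 1.69, 1.46 and 1.60 FPKM in control hippocampi and at 1.73, 2.10 and 2.28 FPKM in cKO hippocampi (0.23, 95% interval −0.02 to 0.48, adjusted p = 0.26 by limma). *Ier2* and *Zfp36* were the 2 of 8 tested members whose cKO libraries all lay above the controls, beside 14.9% of all genes. *Fos* was at 1.77, 1.11 and 1.36 FPKM in controls and 1.69, 2.60 and 1.92 FPKM in cKO. Its groups overlapped, and its change of 0.34 (95% interval 0.01 to 0.68, unadjusted p = 0.0441 and adjusted p = 0.20 by limma) stayed under 0.4. The change was 0.45 without control 1 and 0.43 without cKO 1, both past the thresholds.

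The remaining hippocampal members overlapped between groups. *Dusp1* was at 8.30, 8.08 and 9.76 FPKM in controls and at 10.9, 12.1 and 8.36 FPKM in cKO (0.23, 95% interval −0.05 to 0.51). *Egr1* had the largest standard error of the 8 (0.36), with 5.69, 3.49 and 4.37 FPKM in controls and 4.93, 10.3 and 2.38 FPKM in cKO, so that the highest and the lowest of the 6 values were both cKO libraries (0.16, 95% interval −0.65 to 0.97). *Junb* ran from 2.45 to 3.35 FPKM in controls and from 2.75 to 3.37 FPKM in cKO, *Nr4a1* from 5.43 to 5.75 FPKM and from 5.14 to 7.28 FPKM, and *Jun* from 12.7 to 15.7 FPKM and from 13.2 to 15.1 FPKM. Among these, *Jun* had the narrowest interval, −0.22 to 0.17. Library cKO 2 held the highest value of 8 of the 10 genes, and its members summed to 71.8 FPKM against 46.2 to 58.3 FPKM in the other 5 libraries. Without it the change of *Ier2* was still past the thresholds, within the range above.

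**Figure D2:**
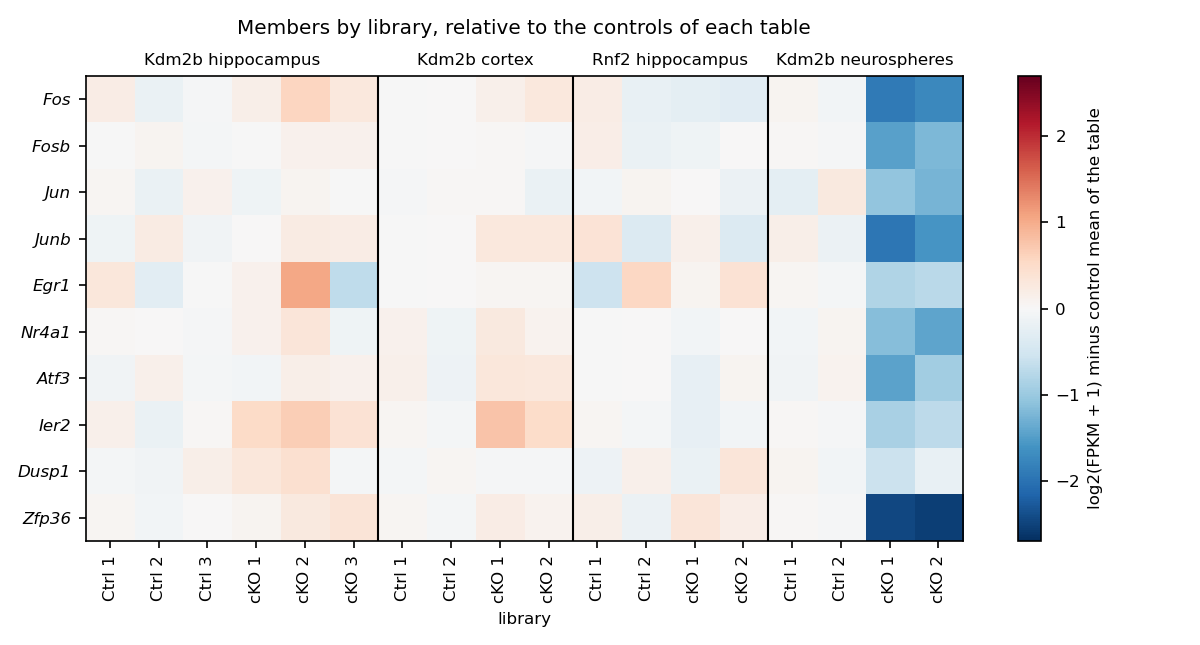
Each of the 10 genes (rows) in each of the 18 libraries (columns) as log2(FPKM + 1) minus the mean of the control libraries of the same table, red above and blue below the controls. The blue block is the pair of cKO neurosphere libraries, where *Zfp36* is darkest; *Ier2* is red in all 3 cKO hippocampi and both cKO cortices, and cKO 2 is the reddest hippocampal column.

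Of the 35 other immediate early genes 32 were tested in Kdm2b cKO hippocampi, 6 were called higher and 1 lower, and their median change was 0.08. *Ier3*, an inhibitor of apoptosis and also a known ZFP36 target, was at 0.682 to 1.15 FPKM in controls and 2.47 to 3.55 FPKM in cKO (1.04, adjusted p = 0.00508 by limma). *Btg2*, an antiproliferative gene of neurogenic progenitors, was at 4.56 to 5.54 FPKM against 7.30 to 9.85 FPKM (0.68, adjusted p = 0.00962 by limma). *Gadd45b*, of the DNA damage response, was at 1.46 to 1.97 FPKM against 2.84 to 3.75 FPKM (0.62, adjusted p = 0.0182 by limma). The 1 gene called lower was *Egr3* (−0.52, adjusted p = 0.0960), whose groups overlapped. *Socs3* and *Cyr61*, both far lower in cKO neurospheres, were at 2.26 to 2.73 FPKM against 3.87 to 4.77 FPKM (0.59, adjusted p = 0.0138 by limma) and at 1.15 to 2.41 FPKM against 2.39 to 3.01 FPKM (0.49, adjusted p = 0.11).

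*Nab2*, a corepressor that binds EGR proteins, was the 1 gene called among 14 MAPK feedback inhibitors and corepressors, with 3.30 to 5.50 FPKM in controls and 8.06 to 9.69 FPKM in cKO (0.96, adjusted p = 0.00930 by limma). Of 10 tested AP-1 partners and ATF factors *Batf3* was called higher (0.67, adjusted p = 0.0987 by limma). *Batf3* was at 0.287 to 0.425 FPKM in controls and 0.530 to 2.03 FPKM in cKO, so it passed the filter only through its cKO values. No upstream kinase or SRF, TCF or CREB factor was called among the 22 tested, and *Srf* was at 11.1 to 11.7 FPKM in controls and 9.93 to 11.5 FPKM in cKO. None of 11 genes of the *Zfp36* family and AU-rich mRNA binding was called either, although *Zfp36l1* at 16.4 to 16.9 FPKM in controls and 19.5 to 23.7 FPKM in cKO had a change of 0.31 (adjusted p = 0.0404 by limma), under the size required. Of 3 tested ZFP36 target mRNAs 1 was called, *Ier3*. Of 9 tested heat shock entries 1 was called, the joined entry of *Hspa1a* and *Hspa1b*, with 0.828 to 1.06 FPKM against 2.94 to 3.33 FPKM (1.12, adjusted p = 0.00108 by limma).

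Markers of other cells moved with these values in hippocampi. Of 10 microglial markers 6 were called higher, and their summed level was 83.2 to 92.5 FPKM in controls and 107.9 to 133 FPKM in cKO. Of 5 tested choroid plexus markers 3 were called higher, led by *Ttr*, and their summed level ran from 7.22 to 19.0 FPKM in controls and from 9.74 to 62.4 FPKM in cKO. Of the 3, *Clic6*, at 0.087 to 0.381 FPKM in controls and 0.390 to 1.33 FPKM in cKO, passed the filter only through its cKO values. Of 8 progenitor markers 3 were called higher, and 1 of 9 neuronal markers lower. All 9 neuronal markers had changes below 0, of which 4 had an adjusted p under 0.05 by limma. Their summed level was 2436 to 2500 FPKM in controls and 1934 to 2216 FPKM in cKO. The summed progenitor markers overlapped, at 994 to 1079 FPKM against 995 to 1134 FPKM. Astrocyte markers were called both ways, with *Sox9* higher (0.68) and *Aqp4* (−0.59) and *S100b* (−0.40) lower. *S100b* passed the filter through its control values, at 0.760 to 1.13 FPKM against 0.360 to 0.627 FPKM in cKO. The part of these cells in the change of *Ier2* was not tested. No marker of endothelium or of meninges and pericytes was called.

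In Kdm2b cKO cortices the same member was called and 0 were called lower. *Ier2* was at 8.47 and 7.82 FPKM in controls and at 14.7 and 11.9 FPKM in cKO, from 284 and 253 reads against 438 and 339 reads. Its change of 0.64 ± 0.12 (SE, unadjusted p = 0.00273) did not reach an adjusted p under 0.05 (adjusted p = 0.13 by limma over 15691 genes). The thresholds were met upward by 4.73% and downward by 2.28% of all genes. Leaving out any 1 library kept *Ier2* past them, with changes of 0.50 to 0.78. Only 6 members passed the filter, with a median change of 0.17 against −0.01 over all genes, while *Egr1*, *Fos*, *Atf3* and *Fosb* stood under it.

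*Junb*, at 1.99 and 2.06 FPKM in control and 2.68 and 2.67 FPKM in cKO cortices, had a change of 0.28 (unadjusted p = 0.0293 and adjusted p = 0.32 by limma), less than 0.4. *Zfp36* was at 1.73 and 1.52 FPKM against 2.03 and 1.82 FPKM (0.16, 95% interval −0.13 to 0.44). With *Ier2* these were the 3 of 6 tested members whose cKO libraries all lay above the controls, beside 22.0% of all genes. *Nr4a1* was at 2.33 and 1.85 FPKM against 2.71 and 2.30 FPKM, *Dusp1* at 12.5 and 13.7 FPKM against 12.7 and 12.8 FPKM, and *Jun* at 15.8 and 16.4 FPKM against 16.5 and 14.0 FPKM, and the groups of all 3 overlapped. *Fos* rested on few reads, 7 and 7 in controls and 12 and 17 in cKO (0.135 and 0.140 against 0.260 and 0.387 FPKM). *Egr1*, with 42 and 42 reads in controls and 42 and 40 in cKO, at 0.425 and 0.441 FPKM against 0.477 FPKM in both cKO libraries, stood far under the 3.49 to 5.69 FPKM of control hippocampi in the other table. *Atf3* had 10 and 0 reads in controls and 15 and 14 in cKO, and *Fosb* had 5 reads or fewer in each cortical library.

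**Figure D3:**
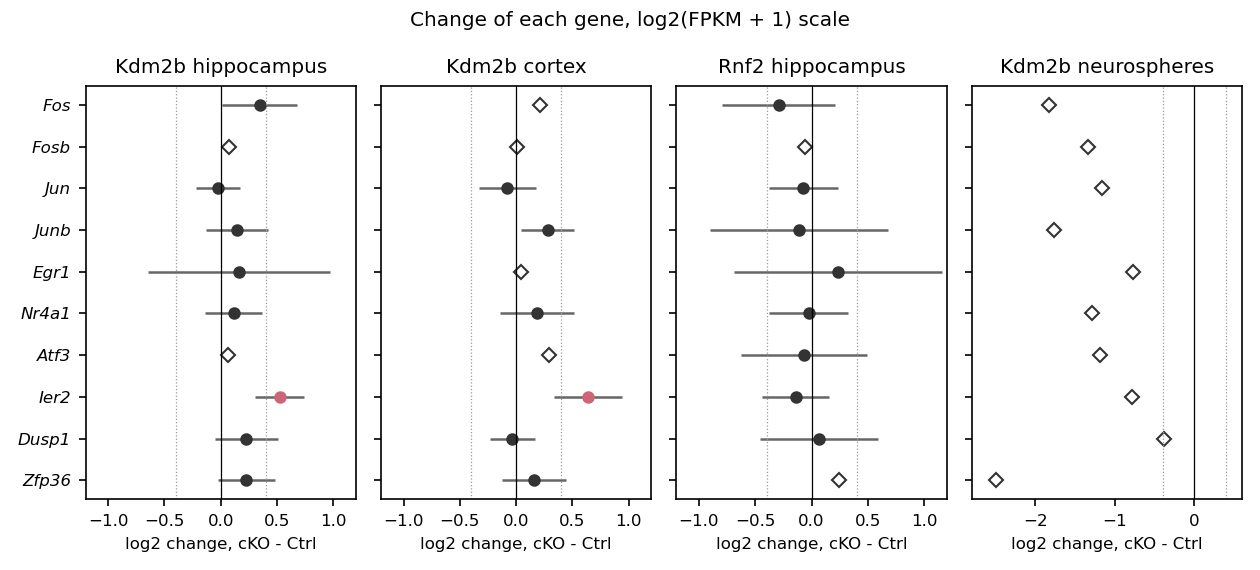
Change of each gene in cKO against control on the log2(FPKM + 1) scale in the 4 comparisons, with limma 95% intervals; red points were called, dark points were not, and open diamonds carry no test (under the filter in tissue, and all neurosphere values, which chose the genes). Dotted lines are at 0.4 in size, and the neurosphere axis has its own range, where all 10 points lie left of 0. *Ier2* is the red point in both Kdm2b tissues.

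Among 31 other immediate early genes tested in cortices, 6 were called higher and 3 lower, with a median of 0.12, and none had an adjusted p under 0.05. *Ier3* was at 1.50 to 1.77 FPKM in controls and 3.11 to 3.74 FPKM in cKO (0.75, adjusted p = 0.11 by limma), *Gadd45b* at 0.770 to 1.03 FPKM against 2.05 to 2.18 FPKM (0.72), and *Cebpb* changed by 0.52. The 3 lower ones were the AP-1 gene *Fosl2*, at 2.84 to 3.75 FPKM in controls and 1.44 to 1.57 FPKM in cKO (−0.77), and the nuclear receptor genes *Nr4a2* (−0.68) and *Nr4a3* (−0.61), relatives of *Nr4a1*. *Nab2* was at 2.21 to 2.56 FPKM against 9.22 to 11.8 FPKM (1.76, adjusted p = 0.0254 by limma), and *Dusp2* changed by 0.76 (adjusted p = 0.12). *Rps6ka1* was the 1 upstream gene called of 22 tested (0.43), and 0 of 11 *Zfp36* family genes were called. *Ier3* was the 1 called of 2 tested ZFP36 target mRNAs, and of 9 heat shock genes *Hspa1b* (0.63) and *Hspb1* (0.52) were called. Over the settings run the change of *Cebpb* ranged from 0.46 to 1.39 and that of *Hspa1b* from 0.61 to 1.89. Both sizes thus depend on the setting, and both genes may have passed the filter only through their cKO values. Markers of meninges and pericytes moved far more in the same libraries. Of 8 such markers 7 were called higher, with a summed level of 19.7 to 20.5 FPKM in controls and 43.3 to 55.7 FPKM in cKO. Endothelial (3 of 9), blood (4 of 6) and microglial (4 of 10) markers were also called higher, with summed endothelial levels of 41.1 to 42.3 FPKM against 64.2 to 65.6 FPKM. Their part in the cortical change of *Ier2* was not tested.

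In *Rnf2* cKO hippocampi 0 of the 8 tested members were called, by limma at these thresholds, at an unadjusted p under 0.05 alone, or by limma-voom on the recovered reads. The thresholds were met upward by 2.86% and downward by 1.85% of all genes. *Ier2* was at 15.4 and 14.4 FPKM in controls and at 12.6 and 14.2 FPKM in cKO (−0.14, 95% interval −0.44 to 0.15), so both cKO libraries lay under the controls. *Fos* was at 2.05 and 1.34 FPKM against 1.21 and 1.16 FPKM (−0.29, 95% interval −0.79 to 0.21). *Zfp36* stood under the filter, at 0.520 and 0.222 FPKM in controls, from 27 and 12 reads, and at 0.698 and 0.534 FPKM in cKO, from 40 and 30 reads.

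*Egr1* again had the largest standard error (0.37), with 2.44 and 6.52 FPKM in controls and 4.39 and 5.65 FPKM in cKO, and without control 2 its change of 0.23 became 0.80, past the thresholds. *Junb* was at 1.95 and 0.782 FPKM in controls and 1.53 and 0.779 FPKM in cKO, and *Dusp1* at 5.90 and 7.46 FPKM against 5.72 and 8.55 FPKM, with both groups overlapping. The others were *Jun* (14.0 and 15.6 against 14.8 and 13.2 FPKM), *Nr4a1* (2.88 and 2.89 against 2.69 and 2.94 FPKM), *Atf3* (0.621 and 0.627 against 0.393 and 0.717 FPKM) and *Fosb*, under the filter at 0.268 and 0 against 0.0388 and 0.129 FPKM. The intervals of *Egr1* (−0.69 to 1.16), *Junb* (−0.90 to 0.68) and *Dusp1* (−0.45 to 0.59) include a change as large as the 0.52 of *Ier2* in *Kdm2b* cKO hippocampi. Of 32 other immediate early genes tested, *Cebpb* (0.59), *Maff* (0.47) and *Ier5* (0.40) were called higher and 0 lower, each with an adjusted p of 0.67 to 0.68 by limma. *Dusp10* (0.64) was called higher and *Egfr* (−0.49) lower, and 0 genes of the AP-1 partner, *Zfp36* family, ZFP36 target and heat shock lists were called.

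**Figure D4:**
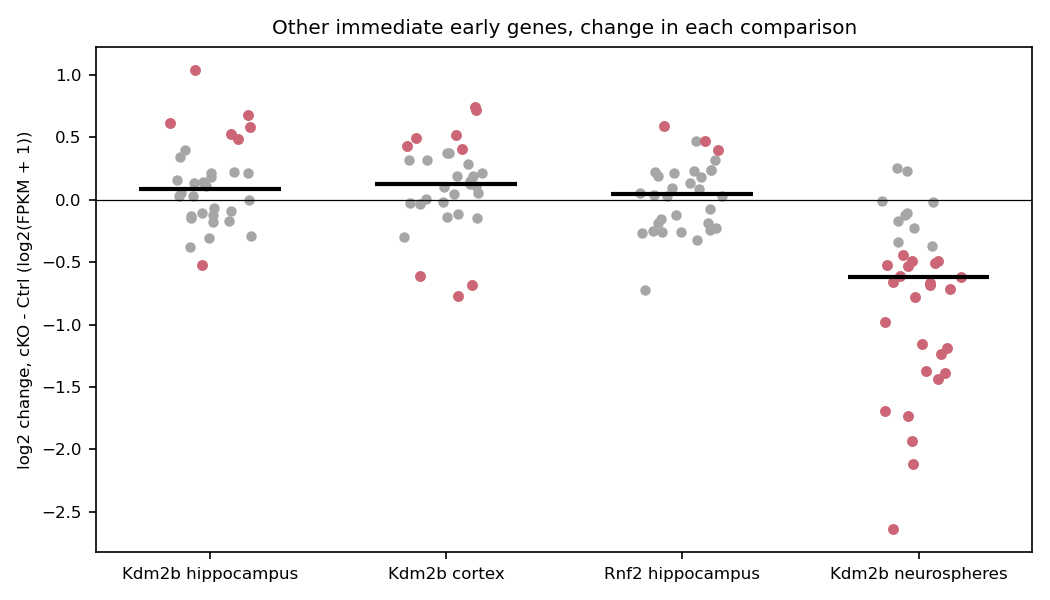
Change on the log2(FPKM + 1) scale of each of the other immediate early genes above the filter in the 4 comparisons, one point per gene, with a bar at the median. Red points passed the thresholds in tissue, or in neurospheres were past 0.4 with groups apart and no test; the neurosphere median is −0.62, and the tissue medians lie between 0.05 and 0.12.

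Changes were then compared between tables, each taken within its own. Between the *Kdm2b* hippocampus and cortex, 0 of 6 members differed by more than 0.4 at an unadjusted p under 0.05, beside 6.97% of 10708 genes. For *Ier2* the difference was −0.11 (95% interval −0.46 to 0.24), and the largest was that of *Dusp1* (0.26, 95% interval −0.12 to 0.65), which became 0.40 and passed the thresholds without hippocampal cKO 3. Between the *Kdm2b* and *Rnf2* hippocampi, 2 of 7 members differed, beside 8.85% of 11266 genes. The change of *Ier2* was higher by 0.67 ± 0.15 (SE) in the *Kdm2b* cKO, with an unadjusted p of 0.00103 and an adjusted p of 0.0730 by limma. That of *Fos* was higher by 0.64 ± 0.24 (SE), with an unadjusted p of 0.0213 and an adjusted p of 0.23. The *Fos* difference lost its call without hippocampal cKO 2 of the *Kdm2b* table (0.52), or without control 1 (0.44) or cKO 2 (0.62) of the *Rnf2* table, while *Ier2* kept it without any 1 library (0.58 to 0.74). In *Rnf2* cKO hippocampi 4 of 8 markers of meninges and pericytes were called lower. Their summed level was 72.4 to 76.7 FPKM in controls and 45.9 to 57.2 FPKM in cKO. The summed choroid plexus markers ran from 14.5 to 53.4 FPKM in controls and from 9.25 to 246 FPKM in cKO. The part of these cells in the differences was not tested.

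The 10 genes varied together more over all libraries than over the tissue libraries. With each table centred on its own mean, the median Pearson r over the 45 pairs of members was 0.75 over 18 libraries and 0.25 over the 14 tissue libraries. The first rests on 4 neurosphere libraries that differ by genotype, and libraries of a table share its normalisation, so both are descriptions. Among 9605 other genes, the 5 with a pattern most like that of *Zfp36* over the 18 libraries were *Cnp* (r = 0.975), *Arc* (0.974), *Sirt2* (0.974), *Abat* (0.971) and *Socs3* (0.970). *Cnp*, a myelin enzyme gene, was at 96.6 FPKM in control and 35.0 FPKM in cKO neurospheres by the means, and at 10.4 and 11.9 FPKM in hippocampi. The 5 most like the mean of the members were *Cnp* (0.975), *Ndrg2* (0.971), *Oplah* (0.967), *Sparc* (0.967) and *Arc* (0.963). Both rankings also rest on the 4 neurosphere libraries, whose values chose the members. They favour genes that were lower in cKO neurospheres and are descriptions only.

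Members of the list share bases with another gene in GENCODE M21 (mm10), and the sources used here do not say whether counting used strand. *Zfp36* (chr7:28376784-28380253, minus strand) shares 1274 bases with the antisense *Gm44710*, which was at 0.136 to 1.16 FPKM in the cortical and *Rnf2* tables. *Jun* (chr4:95049034-95052222, minus strand) shares 689 bases with *Junos*, at 0.0781 to 0.525 FPKM there, *Junb* shares 351 bases with *Prdx2*, which was far more abundant, at 118 to 490.0 FPKM over the 4 tables, and *Dusp1* shares 640 bases with *Ergic1*, at 19.0 to 72.9 FPKM. Reads from such partners cannot be told apart in these values.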

How the data were processed

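Poly(A) RNA from P0 hippocampus, cortex and hippocampal neurospheres was sequenced from both fragment ends. Per the study's methods, reads were trimmed with cutadapt, aligned with STAR to mm10 and quantified with Cufflinks 2.2.1. Which of these tools made the cortical and *Rnf2* tables is not given in the sources used here. The authors deposited FPKM per gene in 4 tables with 1 column per library. In the cortical and *Rnf2* tables FPKM times gene length gave whole reads (within 0.02), while for the other 2 tables the depth behind the FPKM is unknown.

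The members and gene lists were chosen with earlier results of these data known. An entry was a member's if its name, or a comma-joined name, held the gene, and the entry with the highest mean was used. Each table was fitted alone with limma 3.58.1 in R 4.3.3 (trended eBayes, no covariate) on log2(FPKM + 1) where the gene's mean FPKM reached 0.5; this scale understates changes of low genes. A call required p below 0.05 before adjustment and a log2 change beyond 0.4 either way, with Benjamini-Hochberg values over all genes beside them. No neurosphere value of a member or named gene carries a test, and p-values enter that table only in the counts of calls over all genes of the replicate block. Differences of changes were fitted as interactions over genes passing in both tables. Intervals are 95%. All members were named, and from each other list and comparison at most 3 called genes in each direction with the largest changes, with the 5 genes most like *Zfp36* and most like the members' mean. Outside this rule, *Socs3*, *Cyr61*, *Srf* and *Zfp36l1* in hippocampi, *Zfp36l2* and the genes overlapping members were named after their values were seen. The fit was tested on simulated data. Alternatives covered the pseudocount, filter, scaling, trend, replicate block, limma-voom on recovered reads, adjusted p and leaving out each library. The 3′ UTR search and the sum of entries of a name were added after the data were seen. Unnamed entries (2861 of 27180 in the hippocampal, 2059 of 26293 in the neurosphere, 140 of 54672 in the cortical and 0 of 54532 in the *Rnf2* table) were left out of the tests.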

Additional observations from a re-analysis of the deposited data

Results flagged for a closer look

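The change of *Ier2* was higher in *Kdm2b* than in *Rnf2* cKO hippocampi by 0.67 on the log2 scale, and that of *Fos* by 0.64, by a test of the difference itself (unadjusted p = 0.00103 and 0.0213, adjusted p = 0.0730 and 0.23 by limma). The *Fos* call was lost without any of 3 single libraries.

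Several members had every cKO library above every control in a *Kdm2b* tissue and every cKO library below every control in neurospheres. The difference was not tested, since neurosphere values chose the members. In hippocampi these were *Ier2* (0.52) and *Zfp36* (0.23), and in cortices *Ier2* (0.64), *Atf3* (0.30), *Junb* (0.28), *Fos* (0.22), *Zfp36* (0.16) and *Egr1* (0.044), each a log2 change in that tissue. Over all genes tested, 14.9% in hippocampi and 22.0% in cortices had every cKO library above the controls. In cortices *Atf3*, *Fos* and *Egr1* were under the filter that this share uses. *Egr1* had 42 and 42 reads in controls against 42 and 40 in cKO, so its recovered reads were not higher. Its higher FPKM came with the lower depth of the cKO libraries, at 19687261 and 18480518 reads against 21905235 and 21247865 in controls. Recovered reads are not corrected for depth. Those of *Zfp36* in cortices overlapped too, at 132 and 112 in controls and 138 and 118 in cKO.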

How the results depend on the processing

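The call of *Ier2* in *Kdm2b* cKO hippocampi held in every setting run, with changes of 0.43 to 0.59. In cortices it held in all but the adjusted p, which left 0 members called higher. With a pseudocount of 0.1, 2 members were called higher in hippocampi, the second being *Fos* (0.52), and leaving out 1 library gave 1 to 2. The neurosphere median was −1.13 at equal total FPKM, which moved the median of all genes by 0.11, and −1.33 to −1.16 without 1 library. The cortical median was 0.26 by limma-voom and 0.086 to 0.24 without 1 library. Without 1 library the *Rnf2* table gave 0 to 1 member called higher (*Egr1*, without control 2), the difference of hippocampus and cortex 0 to 1 member, and that of *Kdm2b* and *Rnf2* hippocampi 1 to 3. Settings that leave 1 library in an arm assume that it varies like the other groups. No direction reversed among called values.

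Whether the replicate numbers pair the samples was not tested. Where a group has 2 libraries, both same-numbered pairs of the table give the same correlation of deviations. Deviations of same-numbered libraries correlated at −0.10 to 0.05 in hippocampi, −0.28 in neurospheres, −0.05 in cortices and 0.16 in the *Rnf2* table. With the replicate block, calls over all genes (by change and unadjusted p, neurospheres included) went from 826 to 831, 3012 to 2993, 1100 to 1197 and 742 to 989 in these tables, and the members called stayed at 1, 1 and 0 in hippocampi, cortices and *Rnf2* hippocampi, with a hippocampal median of 0.20. Crossing the neurosphere numbers gave 3084 calls over all genes. With 2 or 3 libraries a group, and few reads for *Fos*, *Fosb* and *Atf3* in cortices, small changes could not be seen.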
